A study of Mus musculus with 3 samples.

Results

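A set of 9 secreted regulators of the extracellular matrix was followed here through the cells of healing mouse skin: the proteases Adamts1, Adamts2, Adamts4, Adamts5, Adamts15 and Adamts18 and the inhibitors Timp1, Timp2 and Timp3. They are 9 of the 19070 genes with probes, taken by symbol, and each symbol matched 1 Ensembl identifier. They were chosen by their summed UMI levels per cell class and library and by how these differed between libraries, so levels and ratios are given as a description and no test is attached to them. ADAMTS proteins are secreted metalloproteinases with thrombospondin repeats that bind the matrix and cut large proteoglycans or trim procollagens. TIMP proteins are small secreted inhibitors that block the catalytic site of matrix metalloproteinases, and TIMP3, which stays bound to the matrix, also blocks several ADAMTS enzymes and cell surface sheddases. In skin, fibroblasts are a known source of both families, and the balance between protease and inhibitor governs how the provisional matrix of a wound is remodelled.

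All 3 libraries came from female C57BL/6J mice wounded at postnatal day 50, with a 5 mm full-thickness wound on the back that a splint kept open, and were sampled on day 5. The AN-GelMA wound received 20 µL of gelatin methacryloyl loaded with apoptotic neutrophils, the GelMA wound received 20 µL of the gel without cells, both set with ultraviolet light for 1 min, and the untreated wound, whose library is titled Sham, is described as wounded with no gel. The excised skin included a margin of 2 mm of healthy tissue, and fixed cells were profiled with probe pairs (10x Genomics Flex). There is 1 library per group, so animal, piece of skin and treatment cannot be told apart. How many mice went into a library is not stated in the labels. The files of the AN-GelMA library carry the word heat, whose meaning is not stated either.

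After filtering, 9094 cells from AN-GelMA, 10687 from GelMA and 5721 from the untreated wound were kept. Before filtering, the median was 1134, 1485 and 1125 UMIs (unique molecules counted) per barcode in that order. Clusters carried markers of fibroblasts, pericytes or smooth muscle, endothelium, macrophages, muscle, epidermis and hair follicle, which are cell types of skin and the muscle below it. The tissue caught differed between libraries: hair shaft or matrix cells numbered 46, 1426 and 134, inner root sheath cells 6, 1105 and 56, and fibroblasts 2021, 655 and 1062 in AN-GelMA, GelMA and untreated skin. Levels are counts per 1000000 UMIs (CPM), from the UMIs summed over the cells of a class in a library, with exact 95% Poisson intervals. These intervals cover counting error alone, and not the spread between animals. Probes differ between genes, so levels are compared across cells and libraries for 1 gene at a time. A ratio between libraries was called when it reached 1.5 times with at least 20 UMIs over both libraries and at least 50 cells in each.

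Each of the 9 genes had its own distribution over the 11 classes with at least 50 cells in every library. Adamts5 and Adamts15 were highest in fibroblasts, with no overlap between the 3 fibroblast values and those of the next class. Adamts5, a main aggrecanase, stood at 462, 377 and 401 CPM in fibroblasts of AN-GelMA, GelMA and untreated skin. Upper follicle cells, the next class, held 53.7, 23.8 and 51.4 CPM of it. Adamts2, the procollagen N-proteinase, was found in pericytes or smooth muscle (440.1, 104 and 252 CPM) and in fibroblasts (212, 156 and 196 CPM). The values of these 2 classes overlapped, and no other compared class averaged above 9.54 CPM. Adamts4, the other main aggrecanase, was highest in blood endothelial cells (284, 157 and 244 CPM), ahead of fibroblasts (138, 139.6 and 129.99 CPM).

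Adamts1, a versican-cutting enzyme, was found in endothelial, epithelial and connective tissue classes. It averaged 494 CPM in blood endothelial cells over the 3 libraries, 305 CPM in upper follicle cells, 296 CPM in outer root sheath cells and 243 CPM in fibroblasts, and neighbours in this order overlapped. Among the inhibitors, Timp2 was at similar levels in fibroblasts (263, 239 and 229 CPM) and macrophages (253, 226 and 224 CPM), and the ranges overlapped. Timp3 was highest in outer root sheath cells (180.5, 445 and 219.8 CPM), with an overlap to pericytes or smooth muscle (107, 208 and 78.3 CPM). Timp1, an inhibitor widely induced in injured tissue, was highest in fibroblasts (196, 68.4 and 111 CPM). Its values overlapped those of the next class, pericytes or smooth muscle.

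**Figure D1:**
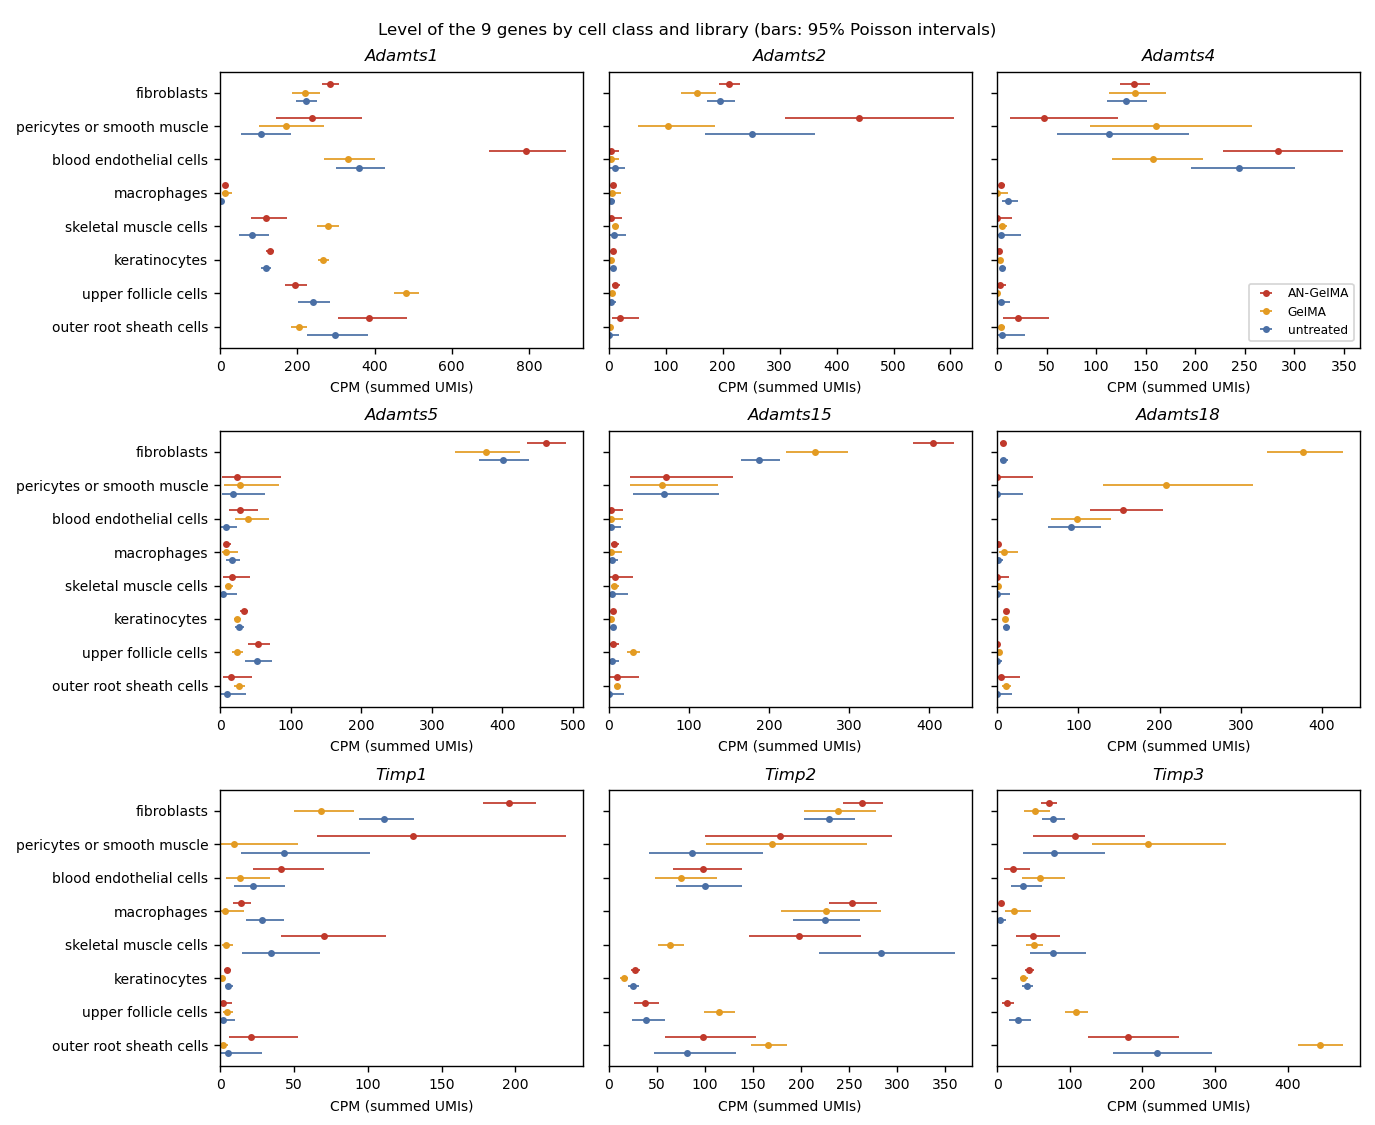
Level of each gene (CPM of summed UMIs, x axis) in 8 cell classes (rows) in AN-GelMA, GelMA and untreated libraries; points are 1 library each and bars are 95% Poisson intervals. Adamts5 and Adamts15 stand apart in fibroblasts, and Adamts18 in fibroblasts is high in GelMA alone, at 377 CPM.

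Adamts18, an ADAMTS protease whose substrates are less well defined, differed most between libraries. In all fibroblasts it had 17, 259 and 9 UMIs in AN-GelMA, GelMA and untreated skin, or 7.0, 377 and 7.05 CPM. The GelMA level was 53.8 times that of AN-GelMA and 53.5 times that of the untreated library. In adventitial type fibroblasts, a cluster of 1030, 420 and 485 cells, there was 1 UMI in AN-GelMA, 224 UMIs in GelMA and 2 UMIs in untreated skin. The log2 ratio was -9.22 (interval -14.53 to -6.73) for AN-GelMA over GelMA and 7.22 (5.35 to 10.27) for GelMA over untreated skin. Both rest on 1 or 2 UMIs on the low side, which makes their size uncertain but leaves the GelMA level of 562 CPM (490.55 to 640.3) well above the low libraries.

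Adamts18 ranked 1 among the 8247 genes measured in adventitial type fibroblasts. The rank is by the smaller of the ratios of GelMA to the other libraries, with counts under 3 UMIs raised to 3. Genes entered with more than 3 UMIs in GelMA and at least 20 UMIs in each pair with GelMA. Adamts18 was listed with this difference known, so its rank is a description. By the same measure it ranked 1 in all fibroblasts and 7 in matrix-building fibroblasts. Ranks elsewhere were 8 in pericytes or smooth muscle and 5598 of 6654 genes in blood endothelial cells. In adventitial type fibroblasts the genes ranked 2, 3, 5 and 6 were Krt27, Krt75, Tchh and Krt71, which belong to the hair follicle. They were picked after their values were seen. Tchh had 16 UMIs in AN-GelMA, 195 in GelMA and 30 in untreated adventitial type fibroblasts. Adamts18 was low in the hair cells of the GelMA library, with 8.42 CPM in inner root sheath cells and 3.90 CPM in hair shaft or matrix cells. The level of Adamts18 that stray markers of other classes would set in GelMA adventitial type fibroblasts was 8.49 CPM, against the 562 CPM measured. Inner root sheath, hair shaft or matrix and dermal papilla type cells were not used as sources in this estimate, so it does not cover their RNA.

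The Adamts18 signal sat in a small set of cells. In GelMA adventitial type fibroblasts 52 of 420 cells had a UMI of it, or 12.4% (exact binomial interval 9.39 to 15.9), against 1 of 1030 cells in AN-GelMA and 2 of 485 in untreated skin. With every cell thinned to 500 UMIs the shares were 0.0971% in AN-GelMA, 9.55% in GelMA and 0.206% in untreated skin. The cells with a UMI held 4.31 UMIs of it on average in GelMA, up to 22 in 1 cell, and 10 cells held 117 of the 224 UMIs. Without the 10 cells with most UMIs, GelMA adventitial type fibroblasts still had 107 UMIs, or 275 CPM. In macrophages, a class not known for the gene, the share of cells with a UMI was 0.0652% in AN-GelMA, 0.525% in GelMA and 0.154% in untreated skin. The median depth was 745 UMIs per cell in GelMA macrophages and 791 in GelMA adventitial type fibroblasts. The Poisson interval treats UMIs as independent, and with this clumping it is too narrow.

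Matrix-building fibroblasts had 16, 35 and 6 UMIs of Adamts18 in AN-GelMA, GelMA and untreated skin (19.1, 136 and 12 CPM), and inflammatory fibroblasts had 0, 0 and 1. Sub-clusters of the fibroblasts were cut on the components of the variable genes that were used for the clusters. Whether Adamts18 was among these genes was not checked, so the levels of the sub-clusters are a description. In sub-cluster 1.0, led by Apod, Abca8a and Podn, there were 1, 192 and 1 UMIs in 194, 265 and 143 cells of AN-GelMA, GelMA and untreated skin, or 5.79, 814 and 7.07 CPM. Adamts18 is itself among its leading genes, and 46 of the 265 GelMA cells had a UMI of it. Sub-cluster 1.4 of the same cluster (Ccn3, Dlk1) had 0, 27 and 1 UMIs, and the 944 CPM in GelMA rest on 4 of 41 cells. Sub-cluster 2.2 of the matrix-building fibroblasts (Mfap4, C1qtnf3, Aspn) had 9, 29 and 2 UMIs, or 94.1, 588 and 34.6 CPM, with a UMI in 7 of 37 GelMA cells. Sub-clusters 1.1 (Pi16, Sfrp4, Tnxb), 1.2 (Lbp, C3, Pi16) and 1.3 (Abca8a, Pi16) held 1, 0 and 0 UMIs over all libraries. Pi16 and Tnxb, markers behind the adventitial name, were not among the leading genes of sub-clusters 1.0 and 1.4. The name thus describes the cluster as a whole, and not the cells with most Adamts18. Of the 224 UMIs in GelMA adventitial type fibroblasts, sub-cluster 1.0 thus held 192.

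**Figure D2:**
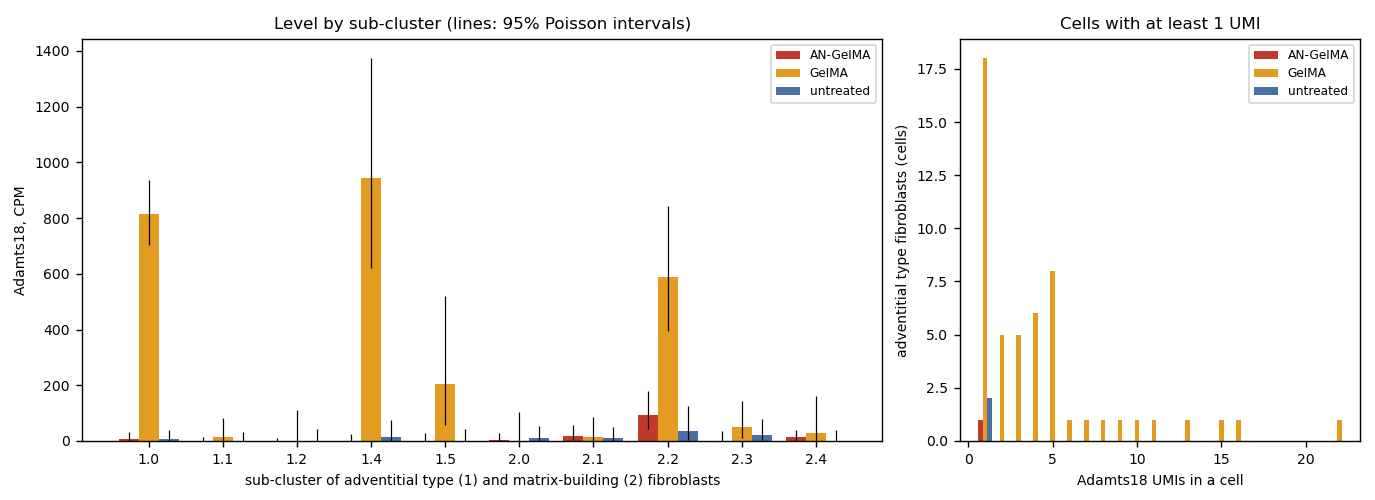
Left, Adamts18 (CPM of summed UMIs, y axis) in fibroblast sub-clusters of AN-GelMA, GelMA and untreated libraries, with 95% Poisson intervals; right, number of adventitial type fibroblasts (y axis) by Adamts18 UMIs in the cell (x axis). GelMA stands at 814 CPM in sub-cluster 1.0, from 46 of 265 cells, and at 944 CPM in sub-cluster 1.4, from 4 of 41 cells, and its cells reach 22 UMIs.

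Outside fibroblasts Adamts18 was found in all 3 libraries in blood endothelial cells, with 49, 30 and 33 UMIs (155, 98.0 and 91.4 CPM) in AN-GelMA, GelMA and untreated skin. There the AN-GelMA level was 1.58 times that of GelMA, with an interval of the log2 ratio of -0.03 to 1.36 that spans 0. Most of it came from the endothelial cluster led by Aqp1 and Selp, with 567, 266 and 365 CPM. Pericytes or smooth muscle had 0, 22 and 0 UMIs, so GelMA was at least 5.83 times AN-GelMA and at least 7.97 times untreated skin, against a floor of 3 UMIs. The level that other cells' markers would set there was 69.4 CPM, of 208 CPM measured. Tchh had 0, 79 and 7 UMIs in pericytes or smooth muscle of AN-GelMA, GelMA and untreated skin. Col11a1, a marker listed for dermal sheath, had 0, 47 and 5, and both genes were picked after their values were seen. Dermal sheath type was scored among fibroblasts alone. Whether the class held the same kinds of cells in each library was not tested. Dermal papilla type cells gave 1 UMI in 13 cells, 0 in 68 cells and 4 in 25 cells of AN-GelMA, GelMA and untreated skin, and the cluster was too small in 2 libraries for a ratio.

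In all fibroblasts, 2 of the 9 genes were higher and 1 lower in AN-GelMA than in GelMA, where 27.6% of all measured genes were past 1.5 times. For GelMA over untreated skin 1 was higher and 1 lower, against 26.2% of all genes. For AN-GelMA over untreated skin 2 were higher and 0 lower, against 11.4%. Nothing is read from these counts, since the genes were listed with the levels known. The comparisons share libraries and are not independent of each other.

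Adamts15, a versicanase, was at 984, 177 and 240 UMIs in fibroblasts of AN-GelMA, GelMA and untreated skin, or 405, 257 and 188 CPM. AN-GelMA was 1.57 times GelMA (log2 0.65, interval 0.42 to 0.89) and 2.16 times untreated skin (log2 1.11, interval 0.90 to 1.32). GelMA was 1.37 times untreated skin, short of the limit. Adventitial type fibroblasts carried it at 627, 371 and 302 CPM, and inflammatory fibroblasts at 577 CPM in AN-GelMA and 289 CPM in untreated skin. The inflammatory cluster had 377, 18 and 197 cells, so GelMA was not compared in it. Matrix-building fibroblasts held 12, 9 and 8 UMIs of Adamts15, and there the log2 ratio of AN-GelMA to GelMA was -1.28 (interval -2.65 to 0.14).

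Adamts15 was most abundant in 2 sub-clusters. Sub-cluster 1.2 (Lbp, C3, Pi16) had 1308, 977 and 558 CPM in AN-GelMA, GelMA and untreated skin, and 254, 24 and 68 cells. Sub-cluster 6.2 (Saa3, Prg4, Ptx3) had 2080 CPM in 57 cells of AN-GelMA and 2159 CPM in 13 cells of untreated skin. Adamts15 is itself among the leading genes of both. Within sub-cluster 6.2 the intervals overlapped between the libraries, whereas in the whole inflammatory cluster AN-GelMA was 1.99 times untreated skin. Of the Adamts15 UMIs in the whole inflammatory cluster, 10 cells held 93 of 305 in AN-GelMA and 53 of 72 in untreated skin.

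Timp1 had 475, 47 and 142 UMIs in fibroblasts of AN-GelMA, GelMA and untreated skin. AN-GelMA was 2.86 times GelMA (log2 1.52, interval 1.08 to 1.98) and 1.76 times untreated skin (log2 0.81, interval 0.54 to 1.09), and GelMA was below untreated skin (log2 -0.70, interval -1.21 to -0.22). Inflammatory fibroblasts had the highest level, 520.2 CPM in AN-GelMA and 281 CPM in untreated skin. Their share of the fibroblasts differs between libraries. Within adventitial type fibroblasts Timp1 was at 80.8, 42.6 and 64.2 CPM, and within matrix-building fibroblasts at 136, 89.2 and 76.2 CPM, so AN-GelMA was highest in each cluster. In the adventitial type the AN-GelMA level was only 1.26 times that of untreated skin, with an interval that spans 0. The ratio of GelMA to untreated skin had opposite signs in these clusters, with log2 values of -0.59 and 0.23 whose intervals both span 0.

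**Figure D3:**
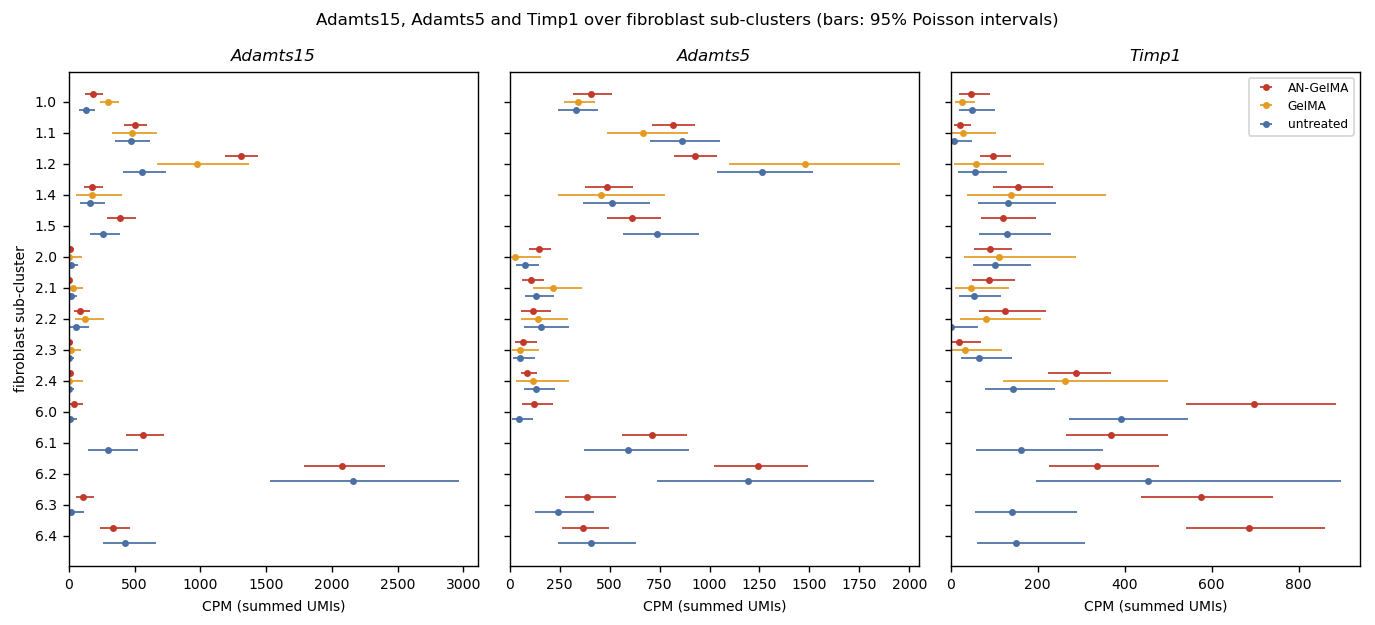
Adamts15, Adamts5 and Timp1 (CPM of summed UMIs, x axis) over fibroblast sub-clusters (rows) in AN-GelMA, GelMA and untreated libraries, with 95% Poisson intervals; values from few cells are left out. Adamts15 reaches 2080 CPM in AN-GelMA and 2159 CPM in untreated cells of sub-cluster 6.2.

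In the adventitial type cluster alone, 3 of 9 genes were higher and 2 lower in AN-GelMA than in GelMA (31.6% of all measured genes were past 1.5 times), and 1 was higher and 2 lower in GelMA than in untreated skin (30%). Adamts2 was among them, with 226 CPM in AN-GelMA, 148 CPM in GelMA and 236 CPM in untreated skin. Adamts4 was lower in AN-GelMA (56.4 CPM) than in GelMA (92.8 CPM), with a log2 interval of -1.33 to -0.09. Adamts5 was at 703, 502 and 712 CPM there and stayed short of 1.5 times in every comparison. For AN-GelMA over untreated skin, 1 of 8 measured genes was higher (16.9% of all genes).

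In matrix-building fibroblasts 2 genes were higher and 2 lower in AN-GelMA than in GelMA (26.3% of all genes), 1 of 8 was higher and 1 lower in GelMA than in untreated skin (25.7%), and 2 of 9 were higher in AN-GelMA than in untreated skin (16.1%). Timp3 had 61, 5 and 33 UMIs in AN-GelMA, GelMA and untreated skin, so GelMA was the low library. Markers of other classes would set 23.5 CPM of Timp3 in the GelMA cells, against 19.4 CPM measured. Adamts4 was similar in all 3 libraries, at 223, 225 and 176 CPM.

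In inflammatory fibroblasts 4 of 8 measured genes were higher and 1 lower in AN-GelMA than in untreated skin (24.1% of all genes). Adamts1 was at 371 CPM in AN-GelMA and 157 CPM in untreated skin (log2 1.24, interval 0.74 to 1.78). Of its UMIs, 10 cells held 86 of 196 in AN-GelMA and 31 of 39 in untreated skin, so this interval is too narrow. Adamts5 was at 535 CPM in AN-GelMA and 317 CPM in untreated skin (log2 0.75, interval 0.39 to 1.13). Timp3 was the gene lower in AN-GelMA, with 47 and 35 UMIs in AN-GelMA and untreated skin and an interval that reaches 0.01. Adamts1 and Adamts5 are neighbouring genes in the RefSeq annotation of GRCm38.p6.

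**Figure D4:**
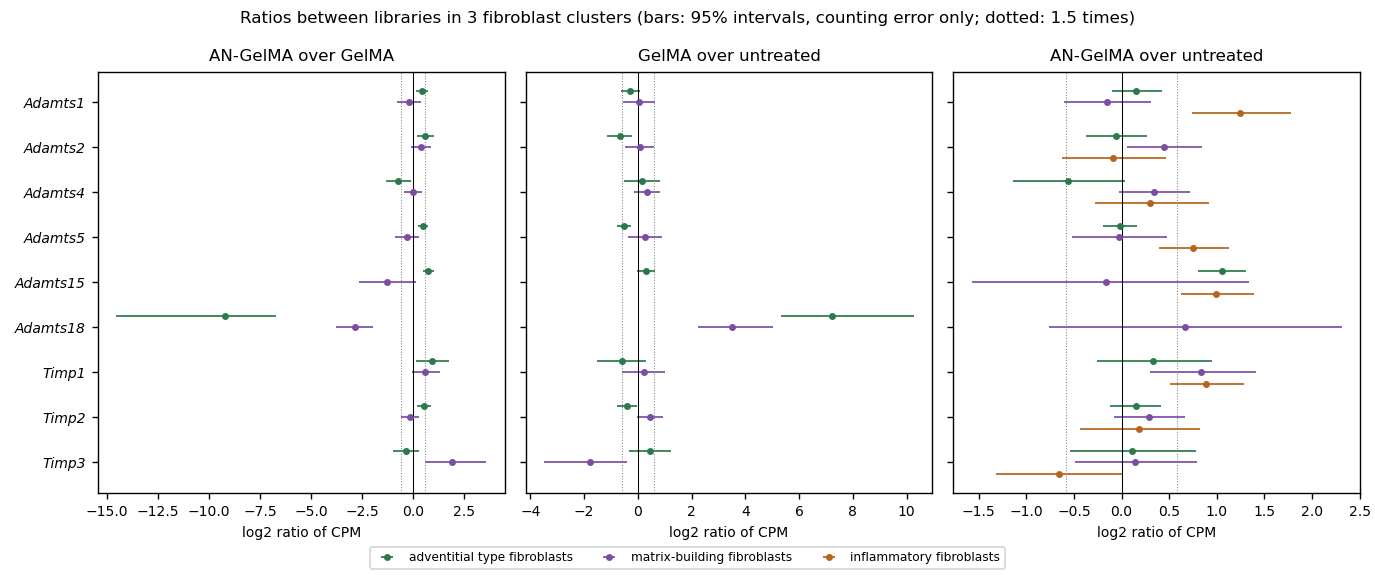
Log2 ratios of CPM (x axis) of the 9 genes (rows) in adventitial type, matrix-building and inflammatory fibroblasts in each pair of libraries; bars are 95% intervals and dotted lines mark 1.5 times. Adamts18 in adventitial type fibroblasts lies at -9.22 for AN-GelMA over GelMA and at 7.22 for GelMA over untreated.

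In blood endothelial cells (272, 310 and 296 cells) Adamts1 had 251, 101 and 130 UMIs, or 792, 330.0 and 360.2 CPM, in AN-GelMA, GelMA and untreated skin. AN-GelMA was 2.4 times GelMA (log2 1.26, interval 0.92 to 1.61) and 2.2 times untreated skin (log2 1.14, interval 0.82 to 1.45). The 10 cells with most UMIs held 137 of the 251 in AN-GelMA, 44 of the 101 in GelMA and 64 of the 130 in untreated skin. With this clumping these intervals are too narrow. AN-GelMA was also highest in the endothelial clusters led by Adgrl4 (976, 348 and 365 CPM) and by Prnd (959, 197 and 505 CPM). In the cluster led by Aqp1 and Selp it was not: AN-GelMA had 291 CPM, GelMA 342 CPM and untreated skin 34.8 CPM. In all blood endothelial cells Adamts4 in AN-GelMA was 1.81 times its GelMA level, and GelMA was below untreated skin (log2 -0.64, interval -1.18 to -0.11).

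Of the 6 genes measured in endothelium, 3 were higher and 1 lower in AN-GelMA than in GelMA (32.6% of all genes were past 1.5 times). For GelMA over untreated skin 1 of 5 was higher and 1 lower (31.4%), and for AN-GelMA over untreated skin 3 of 6 were higher and 1 lower (20.4%). Several of these calls rest on few UMIs, and their number depends on the processing.

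Adamts1 was highest in GelMA in keratinocytes and upper follicle cells, but not in the other follicle classes. Upper follicle cells had 195, 482 and 239 CPM of it in AN-GelMA, GelMA and untreated skin. The libraries filled the clusters of this class unequally, so its sum does not separate their mix from the level within a cluster. Keratinocytes had 597, 1217 and 333 UMIs of it in AN-GelMA, GelMA and untreated skin, or 129, 267 and 119 CPM. AN-GelMA was below GelMA (log2 -1.05, interval -1.19 to -0.91) and GelMA above untreated skin (log2 1.17, interval 0.99 to 1.35). GelMA was highest in each keratinocyte cluster, with 199, 343 and 236 CPM in clusters 3, 9 and 17. In outer root sheath cells GelMA was lowest, with 387 CPM in AN-GelMA, 204 CPM in GelMA and 296 CPM in untreated skin. Hair shaft or matrix cells had 24.8 CPM in GelMA and 161 CPM in untreated skin (log2 -2.70, interval -3.35 to -2.01), and 554 CPM in 46 cells of AN-GelMA. Inner root sheath cells had 26.5 CPM in GelMA and 75.7 CPM in untreated skin, from 63 and 5 UMIs. Keratinocyte counts of the members were 4 higher and 2 lower of 9 for AN-GelMA over GelMA (24.8% of all genes), 1 higher and 5 lower for GelMA over untreated skin (23.3%) and 0 higher and 1 lower for AN-GelMA over untreated skin (7.72%). Calls within these counts turned direction under other settings: for AN-GelMA over GelMA the log2 ratio of Adamts15 was 0.76, and -0.12 with doublets kept, and that of Timp2 was 0.82, and -0.31 with the class given per cell. For GelMA over untreated skin both stood at -0.70, and with the class given per cell at 0.50 for Adamts15 and 0.33 for Timp2.

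Timp3 was higher in GelMA in outer root sheath cells and in 1 of the upper follicle clusters. Outer root sheath cells had 35, 831 and 43 UMIs in 134, 1342 and 192 cells of AN-GelMA, GelMA and untreated skin, and the log2 ratio was -1.30 (interval -1.83 to -0.81) for AN-GelMA over GelMA and 1.02 (0.57 to 1.49) for GelMA over untreated skin. Upper follicle cells had 13.7, 109 and 28.4 CPM. They comprise 2 clusters that the libraries filled unequally: cluster 11 held 110, 644 and 61 cells and cluster 12 held 511, 209 and 266. Within cluster 11 Timp3 was at 6.55, 140.1 and 0 CPM, and within cluster 12 at 15, 15.7 and 34.2 CPM, where GelMA was not above untreated skin. Hair shaft or matrix cells had 60.7 CPM of Timp3 in GelMA, below the 109 CPM of untreated skin (log2 -0.85, interval -1.54 to -0.08). Inner root sheath cells had 35 UMIs in 1105 cells of GelMA and 0 in 56 cells of untreated skin, too few for a direction. Timp2 in upper follicle cells was at 37.9, 114 and 39 CPM, while within cluster 12 it was at 22.6, 24.6 and 34.2 CPM.

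**Figure D5:**
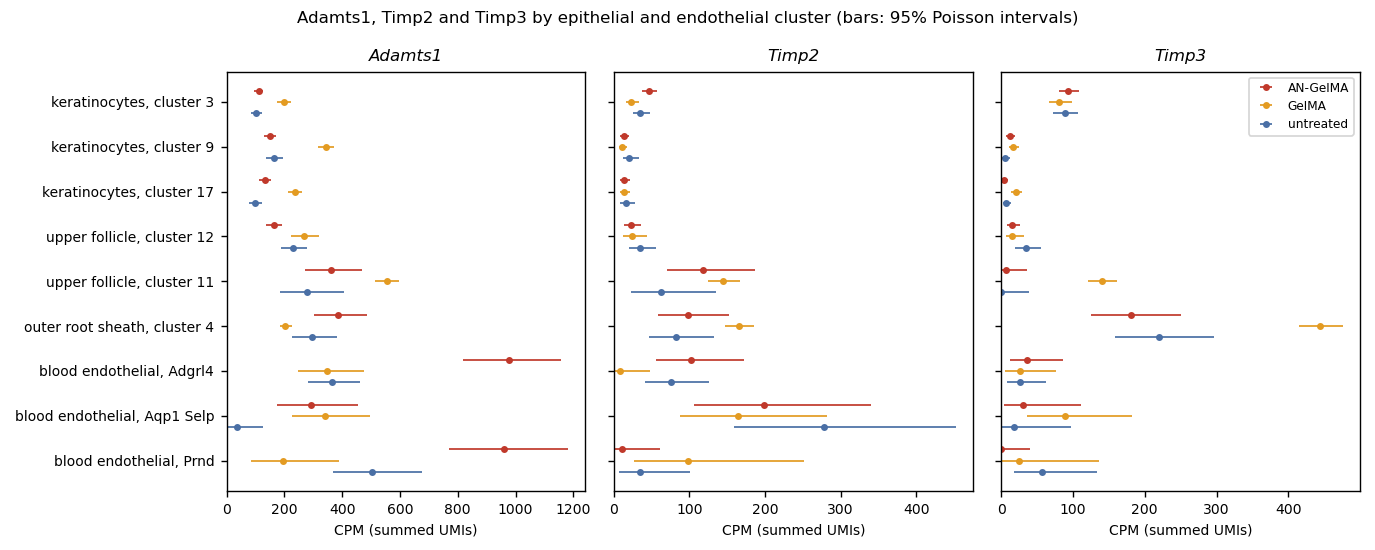
Adamts1, Timp2 and Timp3 (CPM of summed UMIs, x axis) in clusters of keratinocytes, upper follicle, outer root sheath and blood endothelium (rows) in AN-GelMA, GelMA and untreated libraries, with 95% Poisson intervals. Adamts1 is highest in GelMA in the 3 keratinocyte clusters and highest in AN-GelMA in the endothelial clusters led by Adgrl4 and by Prnd.

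In upper follicle cells 2 of 6 measured genes were higher and 4 lower in AN-GelMA than in GelMA (35.8% of all genes), 4 of 5 were higher and 1 lower in GelMA than in untreated skin (35.6%), and 0 of 4 were higher and 1 lower in AN-GelMA than in untreated skin (14.3%). In outer root sheath cells the counts were 1 higher and 4 lower of 6 (41.2%), 3 higher and 0 lower of 5 (40.8%) and 0 of 3 either way (25.2%) in the same comparisons. Of the 4 lower calls, 2 rest on 3 or fewer UMIs in AN-GelMA and turned direction under other settings: Adamts18 (log2 -1.05) was at 0.35 with RNA of other cells taken off, and Adamts5 (log2 -0.79) was at 0.074 with doublets kept.

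Skeletal muscle cells numbered 166, 815 and 174. In them Timp2 was at 198, 63.4 and 283 CPM and Adamts1 at 119.6, 279 and 81.4 CPM in AN-GelMA, GelMA and untreated skin. Timp1 had 17, 5 and 8 UMIs there. Macrophages had 22, 1 and 21 UMIs of Timp1, most of the untreated ones in the wound type cluster (7, 0 and 19 UMIs). Neutrophils had 12 UMIs of Timp1 in AN-GelMA and 0 in GelMA and untreated skin, from 98, 95 and 42 cells. Fewer cells of a class and less RNA per cell cannot be told apart in the library totals, so no totals are compared.

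Other members of the protease family and partners of both families were taken as lists. Of 12 further ADAMTS genes, 11 had a probe and 10 were measured in fibroblasts for AN-GelMA over GelMA, where 2 were higher and 3 lower (27.6% of all genes were past 1.5 times; median log2 -0.21, against -0.10 over all genes). Adamts16 was at 149.8, 75.6 and 149 CPM and Adamts10 at 167, 292 and 190.3 CPM in AN-GelMA, GelMA and untreated skin. None of the 10 measured in all fibroblasts for AN-GelMA over untreated skin was past 1.5 times (11.4% of all genes). By cluster, 1 was higher and 2 lower of 10 in adventitial type fibroblasts (16.9%). In inflammatory fibroblasts 1 was higher and 3 lower of 7 (24.1%), and in matrix-building fibroblasts 0 of 8 were past it (16.1%). Of 7 measured matrix metalloproteinases 0 were higher and 2 lower in AN-GelMA than in GelMA, a share near the 27.6% of all genes. These were Mmp11 and Mmp13, of which Mmp11 was at 288, 591 and 353 CPM and Mmp13 at 7.0, 43.6 and 14.1 CPM in these libraries. Of 5 measured genes for hyaluronan and the proteoglycans that aggrecanases cut, 3 were higher and 0 lower in AN-GelMA than in GelMA, where 27.6% of all genes were past 1.5 times. Cd44, the hyaluronan receptor, was at 435, 167 and 252 CPM. Of 8 measured sheddases and uptake or partner proteins, 1 was higher and 0 lower in AN-GelMA than in GelMA, against the same 27.6%. The higher one was Thbs1, a matrix glycoprotein, at 1082, 575 and 936 CPM. None of 7 measured genes for procollagen processing was past 1.5 times in all fibroblasts in any of the 3 comparisons. The shares of all genes were 27.6% for AN-GelMA over GelMA, 26.2% for GelMA over untreated skin and 11.4% for AN-GelMA over untreated skin. In adventitial type fibroblasts 2 of 7 were higher in AN-GelMA than in GelMA (31.6% of all genes were past 1.5 times), and 2 of 7 lower in GelMA than in untreated skin (30%). For AN-GelMA over untreated skin, 1 of 7 was higher in matrix-building (16.1%) and 1 of 7 lower in inflammatory fibroblasts (24.1%). Nothing is read from these counts.

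A UMI of any of the 6 proteases was found in 68.3% of AN-GelMA, 60.5% of GelMA and 66.4% of untreated adventitial type fibroblasts. A UMI of any of the 3 inhibitors was found in 33.7%, 22.6% and 31.1%, and both kinds in 24.3%, 13.3% and 22.3% of the same cells. In inflammatory fibroblasts both kinds were found in 31.8% of AN-GelMA and 19.3% of untreated cells. These shares are not thinned to 1 depth.

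The genes whose levels ran most alike over the 33 profiles (11 classes in 3 libraries) were Mmp2 for Adamts5 (Pearson r 0.89), Col3a1 for Adamts15 (0.89), Cacna1c for Adamts2 (0.94), Meox2 for Adamts4 (0.94), Smtn for Adamts1 (0.84) and for Timp3 (0.83), Hspa12b for Adamts18 (0.78) and Srpx2 for Timp1 (0.86). For Timp2 it was Cep295nl (0.89), whose gene lies inside Timp2 in the GRCm38.p6 annotation, so the 2 overlap. Classes of 1 library share its depth and its free RNA, and these values are descriptions.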

How the data were processed

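The authors deposited raw UMI counts in whole numbers for every gene and barcode. The file headers name software version 10.0.0, and the submitters' processing notes name Cell Ranger with builds GRCm39 and mm39. Barcodes under 400 UMIs, under 250 genes or above 10% mitochondrial UMIs were dropped. Scrublet marked 0 doublets and so had not worked; per library, the top 5% by its score were dropped instead. Scanpy (1.11.5) scaled counts to 10000 per cell and clustered on 2000 variable genes, 30 components and 15 neighbours (Leiden, resolution 1). Clusters were named from marker lists and kept unnamed where markers disagreed; rebuilt names may differ from the study's. Of the kept cells, 213, 232 and 192 in AN-GelMA, GelMA and untreated skin had a barcode that occurs in another library. UMIs were summed per class and library; ratios have conditional exact intervals, a count of 0 was set to a floor of 3 UMIs and called only towards the library with counts, and no test was possible with 1 library per group. The ratio code was tested on simulated data. The genes, lists and naming thresholds were chosen with earlier results of these data known. Genes named outside the 9 follow the lists and the 3 nearest genes by Pearson r (log2 of CPM plus 5), 1 of which is printed for each. Alternatives covered doublets, depth, class naming, scaling, UMI minimum and RNA of other cells. No sequences were used.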

Additional observations from a re-analysis of the deposited data

Results flagged for a closer look

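In 6 cases a gene's ratio between libraries pointed opposite ways in 2 cell classes under the same comparison, each with an interval that excluded 0 in both. The differences themselves were not tested, and the groups have 1 library each. For AN-GelMA over GelMA, Adamts1 was higher in blood endothelial cells (log2 1.26) and lower in upper follicle cells (log2 -1.31), 2.57 apart. Adamts4 was higher in blood endothelial cells (0.86) and lower in pericytes or smooth muscle (-1.76, from 4 and 17 UMIs), 2.61 apart. Adamts15 was higher in fibroblasts (0.65) and lower in upper follicle cells (-2.51), 3.16 apart. Timp2 was higher in skeletal muscle cells (1.64) and lower in upper follicle cells (-1.59), 3.23 apart. For GelMA over untreated skin Timp2 was higher in upper follicle cells (1.55) and lower in skeletal muscle cells (-2.16), 3.71 apart. The clusters that make up the upper follicle class are filled unequally by the libraries. This limit holds for the upper follicle ratios of Adamts1, Adamts15 and Timp2 alike. For AN-GelMA over untreated skin, Timp1 was higher in fibroblasts (0.81) and lower in macrophages (-1.02, from 22 and 21 UMIs), 1.84 apart. The macrophage ratio was 0.85 with the class given per cell, and it differed by cluster: resident type macrophages had 14.3 CPM in AN-GelMA and 5.06 CPM in untreated skin, from 15 and 2 UMIs, and wound type macrophages 12.9 CPM in AN-GelMA and 53.8 CPM in untreated skin, from 7 and 19 UMIs.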

How the results depend on the processing

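Of 195 ratios between libraries, 97 were past 1.5 times. They count all fibroblasts and also each fibroblast cluster, so the same UMIs enter more than once. Over all genes the share past 1.5 times ran from 7.72% to 41.2% over the classes and comparisons where it was taken. Scaling by the median of ratios kept all 97 ratios past 1.5 times in the same direction. Fewer ratios could be set side by side under the other settings: 77 of 94 stayed past 1.5 times with doublets kept, 64 of 74 in cells of at least 1000 UMIs, 46 of 56 with cells thinned to 500 UMIs, 51 of 67 with the class given per cell, 72 of 85 at Leiden resolution 2, 79 of 86 with RNA of other cells taken off, and 92 of 95 without shared barcodes, a setting added after seeing the data. The cause of the following reversals was not tested. With the class given per cell, the log2 ratio became 0.055 for Adamts5 and 0.85 for Timp1 in macrophages (AN-GelMA over untreated), -0.31 for Timp2 in keratinocytes (AN-GelMA over GelMA), and 0.33 for Timp2 and 0.50 for Adamts15 in keratinocytes (GelMA over untreated). With doublets kept it became -0.12 (AN-GelMA over GelMA) and 0.36 (GelMA over untreated) for Adamts15 in keratinocytes, and 0.074 for Adamts5 in outer root sheath cells (AN-GelMA over GelMA). Adamts18 there became 0.35 with RNA of other cells taken off, and Adamts5 there 0.0022 with thinned cells. Thinning also gave -0.022 for Adamts2 in pericytes or smooth muscle (AN-GelMA over untreated), and cells of at least 1000 UMIs gave 0.085 for Timp1 in adventitial type fibroblasts (GelMA over untreated). In matrix-building fibroblasts alone, the fibroblast ratios became -1.28 (AN-GelMA over GelMA) and -0.16 (AN-GelMA over untreated) for Adamts15 and 0.23 (GelMA over untreated) for Timp1. The number of the 9 genes past 1.5 times in fibroblasts was 5 in the adventitial type alone, against 3, for AN-GelMA over GelMA, and 1 in the adventitial type and 5 in the inflammatory type, against 2, for AN-GelMA over untreated skin. In blood endothelial cells it was 2 with at least 1000 UMIs per cell or 100 UMIs per gene, against 4, for AN-GelMA over GelMA. For GelMA over untreated skin it was 1, against 2, under both of these, without shared barcodes and with RNA of other cells taken off. For AN-GelMA over untreated skin it was 1 under the first 2 and with thinned cells, and 2 with the class per cell or without shared barcodes, against 4. No paired analysis was possible because the 3 groups hold 1 library apiece and share no numbered replicates.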
